A study of Mus musculus with 6 samples.

Results

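Genes of lipid droplet coat and fusion proteins were read on 6 arrays of interscapular BAT (iBAT), 3 from control and 3 from *ob/ob* mice. They were the 5 perilipins (*Plin1*, *Plin2*, *Plin3*, *Plin4*, and *Plin5*) and the 3 CIDE proteins (*Cidea*, *Cideb*, and *Cidec*). These 8 genes were found by the RefSeq accession of each probe on the array, which gave 10 of its 39429 probes, and they are 8 of the 20655 gene symbols named there. Each gene had 1 probe, except *Cideb* and *Cidec* with 2 each. All 8 genes were detected on all 6 arrays, so none was lost to the filter on dim probes, which left 19007 genes for testing.

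All mice were male, 16 weeks old, and on the C57BL/6 background. The controls carry no more than that word as genotype in the labels, so whether they were lean littermates is not given. The *ob/ob* mice are homozygous for a mutation in the leptin gene, which acts in the whole animal and not in brown adipocytes alone, and they become obese. Total RNA of each sample was labeled with 1 dye (Cy3) and hybridized to 1 Agilent whole-genome mouse array. The labels name 3 samples a group and do not say whether each is 1 mouse or a pool, so the p values measure the spread between these samples.

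A lipid droplet is a core of triglyceride and sterol ester within a single layer of phospholipid, and the proteins on that layer decide how fast the fat is released. Perilipins coat the droplet. Perilipin 1 holds back the lipases of adipocytes until the cell is stimulated by catecholamines, perilipin 2 coats droplets in most cell types, perilipin 3 is found both in the cytosol and on young droplets, perilipin 4 coats small droplets in adipocytes and muscle, and perilipin 5 ties droplets to mitochondria in oxidative tissues. CIDE proteins gather where droplets touch and pass lipid from the smaller to the larger droplet. *Cidea* is abundant in brown adipocytes, *Cidec* drives the single large droplet of white adipocytes, and *Cideb* is best known from liver, where it acts in lipoprotein lipidation. Brown adipocytes hold many small droplets, and in obese mice they come to hold larger ones.

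Signals below are background-corrected intensities on the log2 scale after quantile normalization, so that 1 unit is a 2-fold difference. They are compared between arrays for 1 gene at a time, since the signals of different probes are not on a common scale. Differences are *ob/ob* minus control, tested with limma over all 35448 probes that were detected on at least 3 of 6 arrays, with Benjamini-Hochberg adjustment over all of them. No spot was saturated on any array, and 83.5% to 89.9% of spots lay well above background.

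The arrays did not sort by group. Over all probes tested, control 3 had a Spearman correlation of 0.944 with *ob/ob* 2 and of 0.642 with control 1, and *ob/ob* 3 had one of 0.858 with control 1 and of 0.488 with *ob/ob* 2. The spike-in controls of *ob/ob* 3 were dim, with a median of 4.01 (log2) where the other 5 arrays ranged from 6.19 to 7.10. The differences of the 8 genes, and of most pathway and marker genes named below, are therefore given with and without both arrays. Control 1, control 3, and *ob/ob* 1 were read in 1 scan and the other arrays in a scan each, so a value within a scan comes from these 3 arrays.

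With all 6 arrays, none of the 8 genes differed between groups at an adjusted p under 0.05. *Cidea*, the CIDE protein of brown fat, had by far the greatest difference, 8.03-fold lower in *ob/ob* iBAT, and it just missed an unadjusted p under 0.05. For all 5 perilipins the groups overlapped, with differences between −0.74 and 0.14 log2 units. Against 5 of the other 7 genes on the same array, *Cidea* was lower on every *ob/ob* array than on every control array, as were 0.994% to 4.48% of all genes set against the same genes. This comparison was chosen after the values were seen.

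Of the perilipins, *Plin1*, the coat that guards the droplets of adipocytes, read 9.27, 8.76, and 7.73 on control arrays 1 to 3, and 7.39, 7.44, and 8.70 on *ob/ob* arrays 1 to 3 (log2 units). Control 3 lay with *ob/ob* 1 and 2, and *ob/ob* 3 lay with control 1 and 2, so the groups overlapped. The means were 8.58 ± 0.78 (SD, n = 3) and 7.84 ± 0.74 (SD, n = 3), a log2 difference of −0.74 (standard error 0.57, unadjusted limma p 0.240, adjusted p 1.0).

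*Plin2*, the coat found in most cells, read 10.004, 9.59, and 6.47 on control arrays 1 to 3, and 8.39, 7.72, and 10.37 on *ob/ob* arrays 1 to 3. Its highest and its lowest value both came from arrays numbered 3, on the far side of their own group, and the groups overlapped. The means differed by 0.14 log2 units (standard error 1.13, unadjusted limma p 0.902), a value close to 0 that was −0.023 with normexp in place of the scanner software's background correction.

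*Plin3*, the cytosolic perilipin, read 9.68, 9.28, and 7.40 on control arrays 1 to 3, and 7.76, 7.53, and 9.03 on *ob/ob* arrays 1 to 3. Control 3 was the lowest of the 6 arrays, so here too the groups overlapped. The means differed by −0.68 log2 units (standard error 0.73, unadjusted limma p 0.385).

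*Plin4*, the coat of small droplets, read 11.40, 11.08, and 9.11 on control arrays 1 to 3, and 9.19, 9.19, and 12.57 on *ob/ob* arrays 1 to 3. *ob/ob* 3 was the highest and control 3 the lowest array. Its group means differed by −0.21 log2 units (standard error 1.1, unadjusted limma p 0.854).

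*Plin5*, the perilipin that meets mitochondria, read 9.70, 8.70, and 5.75 on control arrays 1 to 3, and 7.29, 6.67, and 9.68 on *ob/ob* arrays 1 to 3. Its signal spanned 3.95 log2 units over the 6 arrays, the widest of the perilipins, far more than the difference between its group means. Control 3 was again the lowest array. The difference was −0.17 log2 units (standard error 1.22, unadjusted limma p 0.894).

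Of the CIDE proteins, *Cidea* read 15.33, 14.58, and 11.16 on control arrays 1 to 3, and 9.89, 9.79, and 12.38 on *ob/ob* arrays 1 to 3. Control 1 and 2 were the highest arrays and *ob/ob* 1 and 2 the lowest, but *ob/ob* 3 exceeded control 3, so the groups overlapped. The means were 13.69 ± 2.22 (SD, n = 3) and 10.69 ± 1.47 (SD, n = 3). The log2 difference was −3.01 (95% interval −6.04 to 0.03, unadjusted limma p 0.0517, adjusted p 1.0), and 30 of the 19007 genes tested had a lower value. In the exact permutation test over the 6 arrays, two-sided, p was 0.20, where 3 arrays against 3 allow no less than 0.10. Within the scan of 3 arrays, the difference of *Cidea* was −3.36 log2 units, from 1 *ob/ob* array and 2 control arrays.

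*Cidec*, the CIDE protein of white fat, read 13.01, 12.30, and 9.47 on control arrays 1 to 3, and 11.20, 10.26, and 13.39 on *ob/ob* arrays 1 to 3 by its brighter probe. As for *Plin2*, *ob/ob* 3 was the highest and control 3 the lowest array. This probe gave 0.02 log2 units (standard error 1.17, unadjusted limma p 0.984), and −0.12 with scaling to the 75th percentile and −0.13 with normexp. Its dimmer probe gave −0.30 (standard error 0.56, unadjusted limma p 0.612), with *ob/ob* 2 as the lowest and control 1 as the highest array.

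*Cideb*, the CIDE protein known from liver, ran the other way. It read 8.47, 9.31, and 10.45 on control arrays 1 to 3, and 10.24, 10.02, and 6.71 on *ob/ob* arrays 1 to 3 by its brighter probe. Control 3 was here the highest array and *ob/ob* 3 the lowest. The means differed by −0.42 log2 units (standard error 1.06, unadjusted limma p 0.703), and its dimmer probe, with the same highest and lowest arrays, gave −0.43 (standard error 0.56).

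**Figure D1:**
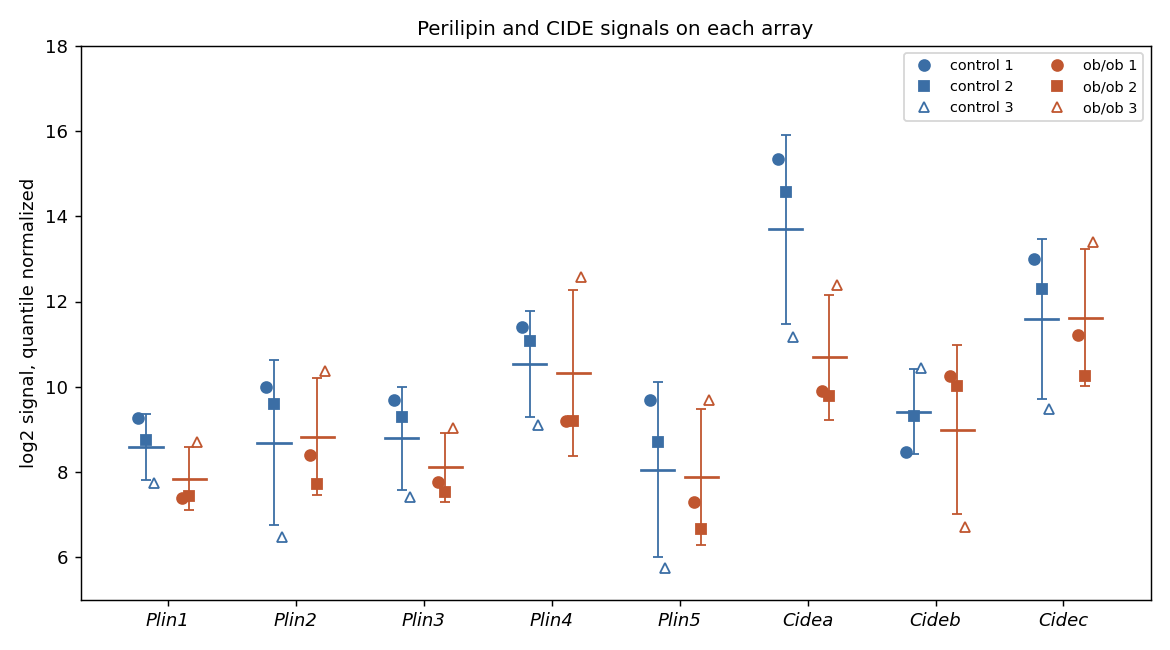
Quantile normalized log2 signal of the 8 genes (vertical axis), with control arrays in blue and *ob/ob* arrays in orange, open triangles for the arrays numbered 3, and bars for the mean ± SD of 3 arrays. Signals are to be compared within a gene only; *Cidea* has the widest gap between the group means, 13.69 against 10.69, and the groups overlap for every gene.

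Over the 8 genes, 0 passed an adjusted p under 0.05, and limma called 0% of all genes tested at that threshold. At an unadjusted p under 0.05, the count was also 0, and it was 0 of 10 probes. With a 2-fold difference asked as well, the count was 0 in both directions, where 1.69% of all genes were higher and 1.5% lower. In none did the groups lie apart, where 3.78% of all genes were higher and 4.22% lower without overlap. The median log2 difference of the 8 genes was −0.32, against −0.09 for all genes. Lower means were found for 6 of 8 genes, against 57.2% of all genes, and for 7 of 8 with scaling to the 75th percentile and 8 of 8 with normexp, but for 4 of 8 when control 1, control 2, *ob/ob* 1, or *ob/ob* 2 was left out. Scaling to the 75th percentile moved the median of all genes by −0.21 log2 units.

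Most of the 8 genes had a wide spread within each group. The median SD of the 8 genes was 1.56 log2 units for controls and 1.53 for *ob/ob* arrays, against 0.52 and 0.77 for all genes. *Plin1*, with an SD of 0.74 among *ob/ob* arrays, lay below the latter median. Of all genes, 2.05% had a greater SD among the controls than *Cidea*.

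Within this spread, *Plin2*, *Plin5*, and *Cidec* kept together from array to array. The Pearson correlation over the 6 arrays was 0.99 for each of the 3 pairs they form, as a description of 6 points that share the same 2 outlying arrays. The log2 signals of *Plin2* and *Cidec* differed by an amount that varied by 0.48 over the 6 arrays, while *Plin2* itself varied by 3.91 and *Cidec* by 3.92. The same measure was 0.61 for *Plin5* with *Cidec* and 0.80 for *Plin2* with *Plin5*. *Plin1* and *Plin3* formed another close pair, with a correlation of 0.97 and a difference that varied by 0.84 over the arrays. *Cideb* was negatively correlated with each of the other 7 genes, from −0.95 with *Plin4* to −0.49 with *Cidea*.

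**Figure D2:**
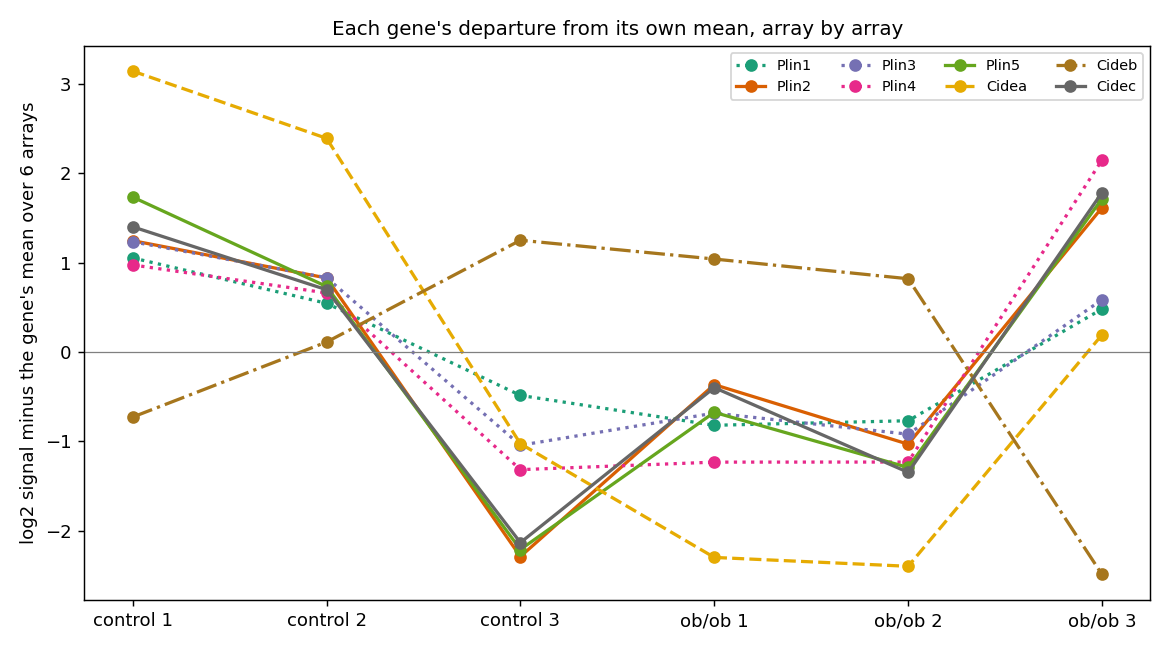
Log2 signal of each gene minus its own mean over the 6 arrays (vertical axis), for each array (horizontal axis); lines join the values of 1 gene and imply no order of the arrays. *Plin2*, *Plin5*, and *Cidec* (solid lines) overlie each other, *Cideb* runs against them on the arrays numbered 3, and *Cidea* (dashed) is above them in all 3 controls and below them in all 3 *ob/ob* arrays.

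The sequence before the start of the annotated gene is shown for *Plin2*, *Plin5*, and *Cidec*, because these 3 moved together on the arrays. The stretches are from RefSeq windows on GRCm38.p6, all on the minus strand and written 5′ to 3′, at chr4:86670218-86670309, chr17:56117607-56117798, and chr6:113435761-113436010. They lie outside every annotated exon of the gene, and that of *Plin2* and that of *Plin5* are shorter because the annotated gene reaches into the window. Capitals mark matches on either strand to AGGTCA, a hexamer bound by nuclear receptors such as PPARs, and to CCAAT. No match overlapped another.
Plin2: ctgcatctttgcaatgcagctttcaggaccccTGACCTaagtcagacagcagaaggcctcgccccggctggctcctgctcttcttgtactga
Plin5: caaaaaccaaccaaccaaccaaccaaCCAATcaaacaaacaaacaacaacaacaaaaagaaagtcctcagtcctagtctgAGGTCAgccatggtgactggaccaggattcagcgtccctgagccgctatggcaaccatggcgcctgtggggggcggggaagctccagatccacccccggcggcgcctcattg
Cidec: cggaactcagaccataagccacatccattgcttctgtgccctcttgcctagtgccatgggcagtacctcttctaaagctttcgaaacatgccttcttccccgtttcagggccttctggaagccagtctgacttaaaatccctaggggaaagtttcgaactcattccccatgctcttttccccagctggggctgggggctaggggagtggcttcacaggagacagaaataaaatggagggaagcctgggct

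AGGTCA was found in the *Plin2* stretch of 92 bases, on the minus strand of the text as TGACCT, where 5.32% of 32851 RefSeq windows hold it over the same length. It was also found in the *Plin5* stretch of 192 bases, where 10.9% of windows hold it, together with CCAAT, held by 27.1%. The *Cidec* stretch of 250 bases held neither. AGGNCA followed by any base and AGGNCA again, the element bound by PPAR with RXR, was in none of the 3 stretches, and in 0.338% of windows over 250 bases. These are matches of letters only and no binding was measured. In the same annotation, *Plin4* and *Plin5* are neighbors on chromosome 17 with no annotated gene between them.

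Since much of the spread was common to several of the genes, each was also set against the others on the same array. The level of such a ratio carries no meaning, and its difference between groups shows only that 2 genes did not change alike. *Cidea* minus *Plin2* was 5.33, 4.997, and 4.70 on control arrays 1 to 3, and 1.498, 2.07, and 2.01 on *ob/ob* arrays 1 to 3 (log2 units). *Cidea* minus *Plin5* was 5.64, 5.89, and 5.41 on control arrays 1 to 3, and 2.60, 3.12, and 2.70 on *ob/ob* arrays 1 to 3. *Cidea* minus *Cidec* was 2.33, 2.28, and 1.69 on control arrays 1 to 3, and −1.31, −0.47, and −1.01 on *ob/ob* arrays 1 to 3. In these 3 ratios, control 3 lay with the other controls and *ob/ob* 3 with the other *ob/ob* arrays, and the groups were apart.

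The groups were also apart for *Cidea* against *Plin3* (difference of the log2 ratio −2.33) and against *Plin4* (−2.79). For *Plin3*, *ob/ob* 3 at 3.35 lay close to control 3 at 3.76. They overlapped for *Cidea* against *Plin1*, with 3.69 in *ob/ob* 3 and 3.44 in control 3, and against *Cideb*, the gene that ran the other way. So 5 of the 7 pairs that include *Cidea* did not overlap between groups, and 0 of the 21 pairs without it. The same was true of 4.48% of all genes set against *Plin2*, 0.994% against *Plin3*, 2.46% against *Plin4*, 1.95% against *Plin5*, and 3.2% against *Cidec*, lower in *ob/ob* iBAT. The 7 pairs share *Cidea* and the 6 arrays and are not independent. Each of the 5 had p = 0.10 in the exact permutation test, two-sided, the smallest that 3 arrays against 3 allow, and 0.56 after Benjamini-Hochberg adjustment over the 28 pairs.

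**Figure D3:**
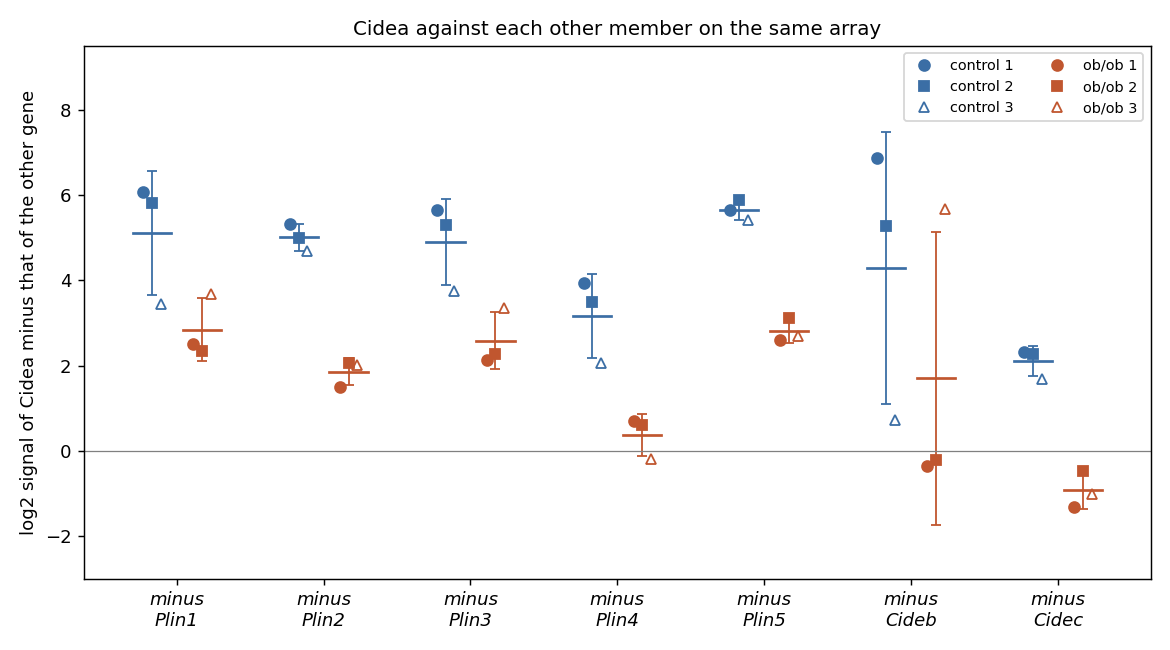
Log2 signal of *Cidea* minus that of each other gene on the same array (vertical axis), with controls in blue, *ob/ob* samples in orange, open triangles for the arrays numbered 3, and bars for the mean ± SD of 3 arrays. The groups are apart against *Plin2*, *Plin3*, *Plin4*, *Plin5*, and *Cidec*, and overlap against *Plin1* and *Cideb*.

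Against the mean of the other 7 genes, *Cidea* lay higher by 5.12, 4.72, and 3.11 on control arrays 1 to 3, and 1.11, 1.39, and 2.32 on *ob/ob* arrays 1 to 3 (log2 units). Every *ob/ob* array lay below every control array. The log2 difference of this ratio was −2.71 (95% interval −4.60 to −0.83), or 6.55-fold lower in *ob/ob* iBAT. When every probe was set against the same mean, the limma p of *Cidea* was 0.0108 unadjusted and 1.0 adjusted, so it did not pass the correction, which 0% of all genes passed, while 0.958% had an unadjusted p under 0.05. An unadjusted p under 0.05 with at least a 2-fold lower ratio was found for 0.495% of genes, and 2.32% had lower ratios without overlap. The difference was −2.46 with scaling to the 75th percentile, −2.69 with normexp, and −3.005 within the scan of 3 arrays, with no overlap of the groups under either scaling.

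Of the other 7 genes set in this way against the rest, only *Plin2* also had groups that did not overlap, with a log2 difference of 0.89 (limma p 0.266 unadjusted). Without overlap and higher against the same mean were 8.67% of all genes, and with scaling to the 75th percentile the groups overlapped for *Plin2*. For *Plin1*, *Plin3*, *Plin4*, *Plin5*, *Cideb*, and *Cidec*, the ratio differed between groups by −0.12 to 0.75 log2 units, each within the overlap of the arrays.

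Without control 3 and *ob/ob* 3, which leaves 2 arrays against 2, limma placed 7 of 8 genes lower and 1 higher at an adjusted p under 0.05. With these 4 arrays 27% of all genes were lower and 22.3% higher at that threshold. *Cidea* was lower, with a log2 difference of −5.12 (95% interval −5.79 to −4.44), or 34.7-fold. The log2 differences of the perilipins, all lower, were −1.59 for *Plin1*, −1.74 for *Plin2*, −1.84 for *Plin3*, −2.05 for *Plin4*, and −2.22 for *Plin5*. That of *Cidec* was −1.92, and *Cideb* was higher by 1.24. The median of the 8 genes was −1.88, against 0.07 for all genes. The removed arrays were set aside because they resemble the other group over all probes, so these 4 arrays differ more by choice, and the p values carry no allowance for it. This holds for every value below that leaves out control 3 and *ob/ob* 3. The ratio of *Cidea* to the other 7 genes, which all 6 arrays separated, was −3.67 on these 4 arrays.

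**Figure D4:**
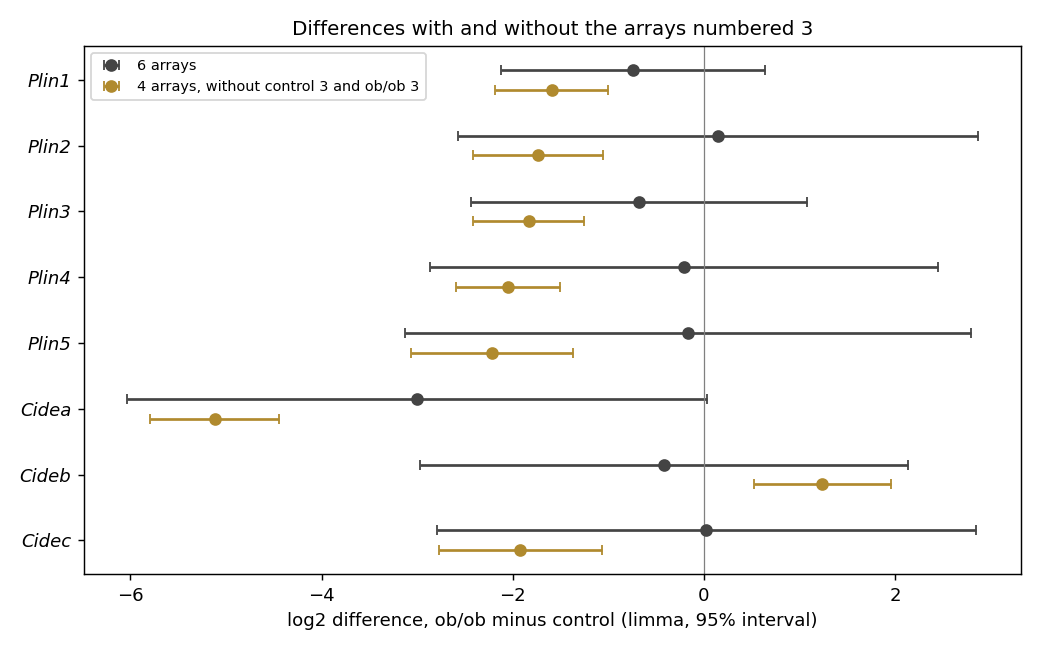
Log2 difference of each gene, *ob/ob* minus control (horizontal axis), with its 95% interval from limma, over all 6 arrays (dark) and over the 4 arrays left without control 3 and *ob/ob* 3 (ochre). With 6 arrays every interval spans 0, and *Cidea* at −3.01 stands farthest from it; with 4 arrays *Cidea* is at −5.12 and *Cideb* at 1.24.

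Other genes of the lipid droplet pathway were read from lists of lipases and their regulators, droplet formation, other droplet surface proteins, and transcription regulators. Of 38 listed genes, 36 were measured, 26 with lower and 10 with higher means, where 57.2% of all genes were lower. The median log2 difference was −0.53, against −0.09 for all genes. At an adjusted p under 0.05, 0 passed, and 2 were lower and 0 higher by 2-fold or more with an unadjusted p under 0.05, as were 1.5% of all genes lower and 1.69% higher. They were *Ppargc1a* and *Pnpla3*. *Ppargc1a*, the coactivator of brown fat gene programs, read 10.06, 9.99, and 7.59 on control arrays 1 to 3, and 5.81, 5.53, and 7.58 on *ob/ob* arrays 1 to 3. The groups were apart by the narrow gap between control 3 at 7.594 and *ob/ob* 3 at 7.578. The log2 difference was −2.91 (standard error 0.87, unadjusted limma p 0.0144, adjusted p 1.0). *Pnpla3*, a lipid droplet hydrolase related to the adipose triglyceride lipase, was −1.82 (standard error 0.72, unadjusted limma p 0.0427), with overlapping groups. Without control 3 and *ob/ob* 3, the differences were −4.35 for *Ppargc1a* and −2.88 for *Pnpla3* (limma, adjusted p 1.5e-05 and 0.000118). On those arrays 27% of all genes were lower at an adjusted p under 0.05.

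*Pnpla2*, the adipose triglyceride lipase, differed by −0.58 log2 units (standard error 1.02), and *Lipe*, the hormone-sensitive lipase, by −0.56 (standard error 0.52). *Abhd5*, the lipase coactivator that perilipin 1 holds at the droplet, differed by −0.10 (standard error 0.40), with values between 13.63 and 14.81 on all 6 arrays. *G0s2*, the inhibitor of the adipose triglyceride lipase, stayed between 6.84 and 7.12 log2 units on all arrays, with a difference of −0.03 (standard error 0.29). None of these 4 had an unadjusted p under 0.05. Without control 3 and *ob/ob* 3, *Pnpla2* was lower by a log2 difference of −2.15 (limma, adjusted p 0.000311), as were 27% of all genes at an adjusted p under 0.05. *Lipe* at 0.16, *Abhd5* at 0.27, and *G0s2* at −0.10 did not pass that threshold. Both *Abhd5* and *G0s2* varied far less from array to array than *Plin2*, *Plin5*, or *Cidec*.

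Of droplet formation genes, 6 of 9 had lower means, with a median log2 difference of −0.58. *Bscl2*, which encodes seipin, was the only gene of this list whose groups did not overlap, by a log2 difference of −0.49 (standard error 0.30), where 4.22% of all genes were lower without overlap. It was −0.63 without control 3 and *ob/ob* 3 (limma, adjusted p 0.0543). Of other droplet surface proteins, 6 of 10 had lower means, with a median of −0.15. Among the transcription regulators, *Pparg*, the master regulator of adipocyte genes, differed by −0.03 (standard error 0.64), *Ppara* by −0.57 (standard error 0.48), and the list by a median of −0.78, with 8 of 10 lower. Without control 3 and *ob/ob* 3, *Pparg* was lower by a log2 difference of −1.03 (limma, adjusted p 0.00613), as were 27% of all genes at an adjusted p under 0.05. *Ppara* differed by −0.26 on the same arrays (limma, adjusted p 0.412).

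**Figure D5:**
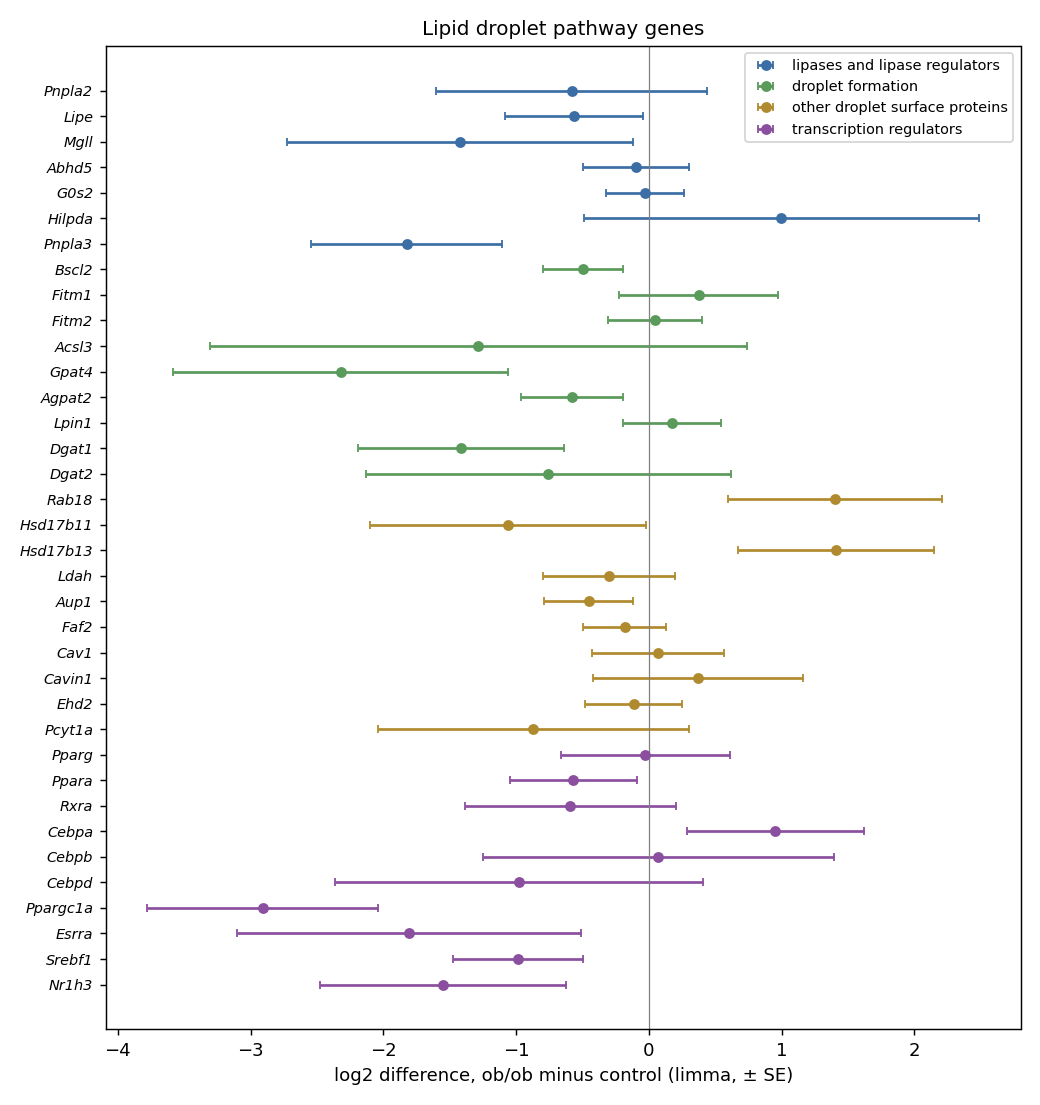
Log2 difference of 36 lipid droplet pathway genes, *ob/ob* minus control (horizontal axis), with the standard error from limma, colored by list. *Ppargc1a* at −2.91 and *Pnpla3* at −1.82 are those with an unadjusted p under 0.05, while *Abhd5* and *G0s2* sit near 0 with short bars.

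A difference in whole tissue can come from fewer cells of a type or from less RNA per cell, and these cannot be told apart here. *Ucp1*, the uncoupling protein that defines brown adipocytes, was detected on all 6 arrays. It read 13.05, 11.72, and 9.48 on control arrays 1 to 3, and 8.93, 9.12, and 10.03 on *ob/ob* arrays 1 to 3, so that *ob/ob* 3 exceeded control 3, as it did for *Cidea*. The leptin gene, *Lep*, read 5.74, 4.57, and 5.30 on control arrays 1 to 3, and 6.68, 5.83, and 9.33 on *ob/ob* arrays 1 to 3. It was higher on every *ob/ob* array, as were 3.78% of all genes, with a log2 difference of 2.07 (standard error 0.93, unadjusted limma p 0.0641). Its *ob* allele is still transcribed, so that its signal does not read the genotype. *Adipoq*, made by all adipocytes, read 11.60, 11.13, and 8.63 on control arrays 1 to 3, and 9.53, 8.71, and 13.11 on *ob/ob* arrays 1 to 3, with *ob/ob* 3 highest and control 3 lowest, as for *Plin4*. Over all 6 arrays, the log2 differences were −2.06 for *Ucp1* (standard error 0.92) and −0.004 for *Adipoq* (standard error 1.33). Without control 3 and *ob/ob* 3, the differences were −3.36 for *Ucp1*, 1.097 for *Lep*, and −2.24 for *Adipoq* (limma, adjusted p 0.000313, 0.0667, and 0.000800). At an adjusted p under 0.05, 27% of all genes were then lower and 22.3% higher.

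Markers of other cell types also moved from array to array. The summed signal of 8 of 8 brown adipocyte markers ranged from 11.001 to 14.08 log2 units over the controls and from 10.73 to 11.67 over the *ob/ob* arrays, with *Elovl3* and *Ebf2* detected on 3 arrays and *Prdm16* on 4. Next to *Ucp1*, the brightest was *Cox7a1*, a cytochrome c oxidase subunit, which differed by −1.15 (standard error 0.99). *Zic1*, detected on all arrays, was lower without overlap, as were 4.22% of all genes, by a log2 difference of −2.08 (standard error 0.48), and of −2.11 without control 3 and *ob/ob* 3. *Elovl3* was also lower without overlap, by −4.51 (standard error 1.06). Its *ob/ob* values of 3.30, 3.92, and 3.29 were dim, so the size of that difference is uncertain. Of the 8 brown adipocyte markers, 7 had lower means, with *Dio2* and *Otop1* at −0.16 each, and *Ebf2* was higher by 1.15. For 5 of 5 general adipocyte markers, the sums were 13.65 to 16.46 and 14.55 to 16.57. Of the brightest adipocyte genes, *Fabp4* differed by 0.07 log2 units (standard error 0.86) and *Cfd* by −3.09 (standard error 1.29, unadjusted limma p 0.0514). For 10 of 10 skeletal muscle markers, the sums were 12.18 to 15.91 and 9.49 to 17.06, with the lowest sums in *ob/ob* 1 and 2 and the highest in *ob/ob* 3. The brightest muscle genes were *Myh4*, with a log2 difference of −4.13 (standard error 2.17), and *Tnni2*, with −2.97 (standard error 2.62). *Myh4* read 14.44, 14.96, and 11.16 on control arrays 1 to 3, and 6.97, 6.96, and 14.25 on *ob/ob* arrays 1 to 3. *Tnni2* read 13.72, 14.35, and 10.08 on control arrays 1 to 3, and 7.12, 6.39, and 15.73 on *ob/ob* arrays 1 to 3. These values moved with those of the perilipins, with control 3 below the other controls and *ob/ob* 3 above the other *ob/ob* arrays.

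For 5 of 5 fibroblast markers, the sums were 9.73 to 12.24 and 8.82 to 13.83, and for 3 of 5 erythrocyte markers 9.89 to 11.40 and 9.25 to 12.37, again with *ob/ob* 3 highest. Of the erythrocyte markers, *Slc4a1* went the other way, with its lowest value, 6.81, in *ob/ob* 3. The brightest fibroblast genes, *Col1a1* and *Dcn*, differed by −0.35 (standard error 1.499) and −1.65 (standard error 1.65). Without control 3 and *ob/ob* 3, these bright genes of the adipocyte, muscle, and fibroblast lists were lower. The log2 differences were −2.61 for *Cox7a1*, −1.28 for *Fabp4*, −5.31 for *Cfd*, −7.74 for *Myh4*, −7.28 for *Tnni2*, −2.75 for *Col1a1*, and −4.40 for *Dcn*. Each passed an adjusted p under 0.05 in limma, as did 27% of all genes lower and 22.3% higher. On the same arrays, the brightest endothelial markers, *Pecam1* and *Cdh5*, differed by 1.42 and −5.30, against 0.05 and −2.69 over all 6 arrays. The brightest macrophage markers, *Itgam* and *Csf1r*, differed by −1.56 and 2.23 without control 3 and *ob/ob* 3. Over all 6 arrays they differed by −1.43 and 1.12. For 7 of 8 macrophage markers, the sums were 12.53 to 13.92 and 11.62 to 12.62. By gene, 3 of these had lower and 4 higher means, with a median log2 difference of 0.23. The macrophage gene *Mpeg1* read 7.12, 8.02, and 10.63 on control arrays 1 to 3, and 10.17, 9.63, and 5.97 on *ob/ob* arrays 1 to 3. As for *Cideb*, control 3 was its highest array and *ob/ob* 3 the lowest. *Adgre1* of the same list had this pattern too, but *Mrc1* ran the opposite way, with 3.54 in control 3 and 9.98 in *ob/ob* 3. *Lyz2* and *Cd14* were also highest in *ob/ob* 3. The pattern was not particular to macrophage genes, since *Lipe*, *Rxra*, and *Slc4a1* had it as well. Its share over all genes was not counted. The sums were 12.66 to 13.28 and 11.83 to 12.63 for 6 of 6 endothelial markers, and 9.53 to 9.82 and 8.78 to 9.62 for 6 of 6 lymphocyte markers. For 5 of 5 white adipocyte markers, they were 9.81 to 10.95 and 9.61 to 10.47. Of the last list, *Lep* was higher and *Retn*, at −1.98, lower without overlap. No marker measured was at 0, since a dim probe still carries a background signal. *Myh1* was detected on 4 of 6 arrays and *Mylpf* on 5, and the other 8 muscle markers on all 6. The part of other cell types in the differences above was not tested.

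By their pattern over the 6 arrays, the genes most like *Cidea* were *St6galnac6* (Pearson r 0.998), *Plgrkt* (0.998), *Fasn* (0.997), *Acot11* (0.997), and *Mpdu1* (0.997), among 15881 other genes detected on all arrays. *Fasn* encodes fatty acid synthase and *Acot11* an acyl-CoA thioesterase of brown fat. *Fasn* read 9.59, 8.96, and 6.80 on control arrays 1 to 3, and 5.80, 5.91, and 7.34 on *ob/ob* arrays 1 to 3, with *ob/ob* 3 above control 3. The genes most like *Plin1*, the perilipin with the lowest p, were *Dnajb1* (0.998), *Cyhr1* (0.997), *Setd4* (0.997), *Sertad1* (0.997), and *Tmem120a* (0.996). High correlations are common over 6 arrays, and 6.03% of genes exceeded 0.9 with *Cidea* and 11.1% with *Plin1*.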

How the data were processed

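Per the labels, total RNA of 3 control and 3 *ob/ob* samples of iBAT was hybridized to 1 single-dye Agilent array per sample. The authors deposited scanner intensities (Agilent Feature Extraction 11.0.1.1), corrected for background within each array and not normalized between arrays, along with uncorrected spot and local background values and detection flags. The authors also deposited a log2 table quantile normalized in GeneSpring, which served as an alternative.

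Spots with an outlier flag were dropped, the log2 values of a probe's spots were averaged, and the arrays were quantile normalized. Probes with at least 50% of spots well above background on at least 3 of 6 arrays were tested two-sided without covariates in limma 3.58.1 (R 4.3.3). Probes were named through RefSeq accessions in the annotation of GRCm38.p6, which named 94.9% of 28684 RefSeq probes, and the brightest tested probe stands for a gene. The array design uses another build. Arrays carry no counts, and their number limits the precision.

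The 8 genes, the lists, and the rule for named genes were chosen with earlier results of these data known. That rule takes the 8 genes with every probe, pathway genes past 2-fold and an unadjusted p of 0.05, *Pnpla2*, *Abhd5*, *Lipe*, *G0s2*, *Pparg*, *Ppara*, *Ppargc1a*, *Ucp1*, *Adipoq*, *Lep*, the 2 brightest genes of a marker list that goes with a member, and the 5 genes most like the lowest-p gene of each family. *Bscl2* and *Zic1* were named for their groups lying apart, and *Mpeg1* for its likeness to *Cideb*. Besides *Zic1* and *Lep*, the marker genes *Elovl3*, *Retn*, and *Cd3e* were lower without overlap, and *Mylpf*, *Ms4a1*, and *Cd14* higher. Of all genes, 4.22% were lower and 3.78% higher without overlap. Ratios between members were added after their values were seen. Code was tested on simulated data. The alternatives were scaling to the 75th percentile, normexp (offset 50, on the median spot signal), the authors' values, no filter or detection on all 6 arrays, the methods' t-test, limma with trend and robust estimation, the replicate number or the scan as a block, each array left out in turn, both arrays numbered 3 left out, and the mean of a gene's probes. *Ldaf1*, *Spart*, *Cd68*, and *Hbb-b1* of the lists were not measured here, and 1 listed gene is not reported here. Figures and tables were made with Python (version 3.11.15).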

Additional observations from a re-analysis of the deposited data

How the results depend on the processing

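*Cidea* was lower in *ob/ob* iBAT under all 17 alternatives (−5.12 to −2.18), and *Plin1* (−1.59 to −0.40) and *Plin3* (−1.84 to −0.23) likewise. Several of the 17 cannot move the difference of a gene with 1 probe, so their agreement in direction carries no weight. They are the changes of filter, the methods' t-test, trend and robust estimation, the replicate block, and the mean of a gene's probes. The ratio of *Cidea* to the other 7 genes was lower under the 10 alternatives run for it (−3.67 to −2.31). None of the 8 genes passed an adjusted p under 0.05 except without control 3 and *ob/ob* 3 together, where 8 did, 7 lower and 1 higher, all of them 2-fold or more, with a median of −1.88. *Cidea* alone passed an unadjusted p under 0.05 and 2-fold, which made the count 1 in place of 0, with scaling to the 75th percentile (limma p 0.0466, adjusted 0.999), without control 3 (0.00395, adjusted 0.336), and without *ob/ob* 3 (0.0285, adjusted 0.50). With the scan as a block, its difference of −3.36 rests on control 1, control 3, and *ob/ob* 1. That setting is therefore counted above for direction only and not for passing a threshold. Its limma p was 0.116 with the replicate block, 0.150 without control 1, 0.136 without control 2, 0.134 without *ob/ob* 1, and 0.138 without *ob/ob* 2. The methods' t-test gave *Cidea* an unadjusted p of 0.122. Leaving out each array in turn gave counts of 0 to 1 lower and 0 higher, and medians from −1.11 (without *ob/ob* 3, and −1.103 without control 3) to −0.0052 (without control 1).

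The direction of the other 5 genes turned. Leaving out 1 array at a time gave −0.96 to 0.80 for *Plin2*, −1.34 to 0.35 for *Plin4*, −1.32 to 0.65 for *Plin5*, −1.05 to 0.72 for *Cideb*, and −1.04 to 0.73 for *Cidec*. Without both arrays numbered 3, *Plin2* was −1.74, *Cideb* 1.24, and *Cidec* −1.92. With normexp, *Plin2* was −0.023 and *Cidec* −0.13. With the scan as a block, *Cideb* was 0.78 and *Cidec* −0.033. *Cidec* was −0.12 with the 75th percentile and −0.14 by the mean of its probes. Leaving out arrays and the scan block use fewer samples, the mean brings in the dimmer probe, and the cause of the other turns was not tested.

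Samples with the same replicate number deviated from their group means in opposite directions (correlation −0.78, −0.66, and −0.85), and no label ties the numbers to shared animals or days. Pairs with different numbers ranged from −0.85 (control 1 with *ob/ob* 2) to 0.87 (control 1 with *ob/ob* 3), so this was not particular to a shared number. Each number holds an array of each group, so the replicate block cannot move the differences, and the median stayed at −0.32. With this block 0 genes passed, as without it. All 8 genes were well above background on every array, and precision is limited by having 3 arrays a group.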
